A study of Mus musculus with 3 samples.

Results

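The nuclear genes for the proteins of the mitochondrial ribosome were followed in MigA9 cells, a mouse hematopoietic cell line transformed by the homeobox protein Hoxa9, with and without the DNA ligand DB818. The genes were chosen by name, as array probes whose gene name began with Mrpl (large subunit) or Mrps (small subunit) followed by a digit, and by a signal well above background in both channels. By name alone there were 126 probes for 75 genes, 46 of the large subunit and 29 of the small. Of these probes 111 met the second condition on every array, and they gave a value for each of the 75 genes. The set is 75 of the 10948 genes measured in this way, out of 27389 on the array.

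Cells grown in medium conditioned with GM-CSF received 2.5 µM DB818 for 6, 12 or 24 h, and their RNA (Cy5) was hybridised together with RNA of untreated MigA9 cells (Cy3) to 1 two-colour Agilent array per time. All 3 arrays thus compared the same Hoxa9-transformed line, and no cells without Hoxa9 were among the samples. The labels name 1 line and do not state whether it is clonal, nor whether all arrays shared 1 preparation of untreated RNA. DB818 binds the minor groove of DNA and has been studied as a compound that keeps HOXA9 from its sites.

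The mitochondrial ribosome translates the few messages of mitochondrial DNA, which encode membrane subunits of the respiratory chain and of ATP synthase. Its RNAs come from the mitochondrial genome, while all of its proteins are encoded in the nucleus, made in the cytosol and imported. The large subunit joins the amino acids, and the small subunit binds the message and decodes it. Many of the proteins have counterparts in bacterial ribosomes, others are found in mitochondria alone, and several genes of this family are mutated in inherited disorders of energy metabolism.

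A value below is the log2 ratio of treated to untreated cells after background correction and loess normalisation within the array, unless a fold or a signal is named, and a gene with several probes has their mean. The log2 signals of a gene in treated and in untreated cells were computed from its mean brightness and this normalised ratio. Which of them is the higher therefore only restates the sign of the ratio. The mean of the 3 arrays was tested against 0 with limma across all 10948 genes, at a Benjamini-Hochberg adjusted p of 0.05, and "rose" and "fell" are used for genes past it. The times stand in for replicates in this test, so its error is the spread between times. With 1 array per time, ratios at single times have no test. Cy5 always held the treated sample, and a dye bias that a gene carries on every array cannot be told apart from an effect of DB818. In bulk RNA, fewer cells of a kind and less RNA per cell cannot be told apart either. The scatter of repeated spots of 1 probe was 0.044, 0.034 and 0.051 (SD of the log2 ratio, 22 repeated probes) at 6, 12 and 24 h. Of the myeloid genes on the array, 14 of 14 were well above background on all arrays, Csf2ra, Csf2rb, Mpo and Itgam among them, while 0 of 4 T cell, 0 of 4 B cell, 0 of 4 erythroid, 0 of 3 megakaryocyte and 0 of 4 stromal markers were.

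Most genes of the mitochondrial ribosome differed little between treated and untreated cells, and a minority rose or fell slightly at all times. Over both subunits 20 genes rose, 7 fell and 48 did not pass. The 27 that passed are 36.0% of the set, beside 28.8% of all genes tested. The shares that rose and fell were 26.7% and 9.33%, beside backgrounds of 20.6% and 8.14%. The median size of the 27 was 1.1-fold. The largest ratio of any of the 75 genes at a single time was 1.22-fold, that of Mrps24 at 6 h. All 27 had the same sign on 3 of 3 arrays, which the test itself favours, since its error is the spread between these arrays. Whether called or not, 62.7% of the 75 genes and 62.3% of all genes tested had the same sign on 3 of 3 arrays.

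**Figure D1:**
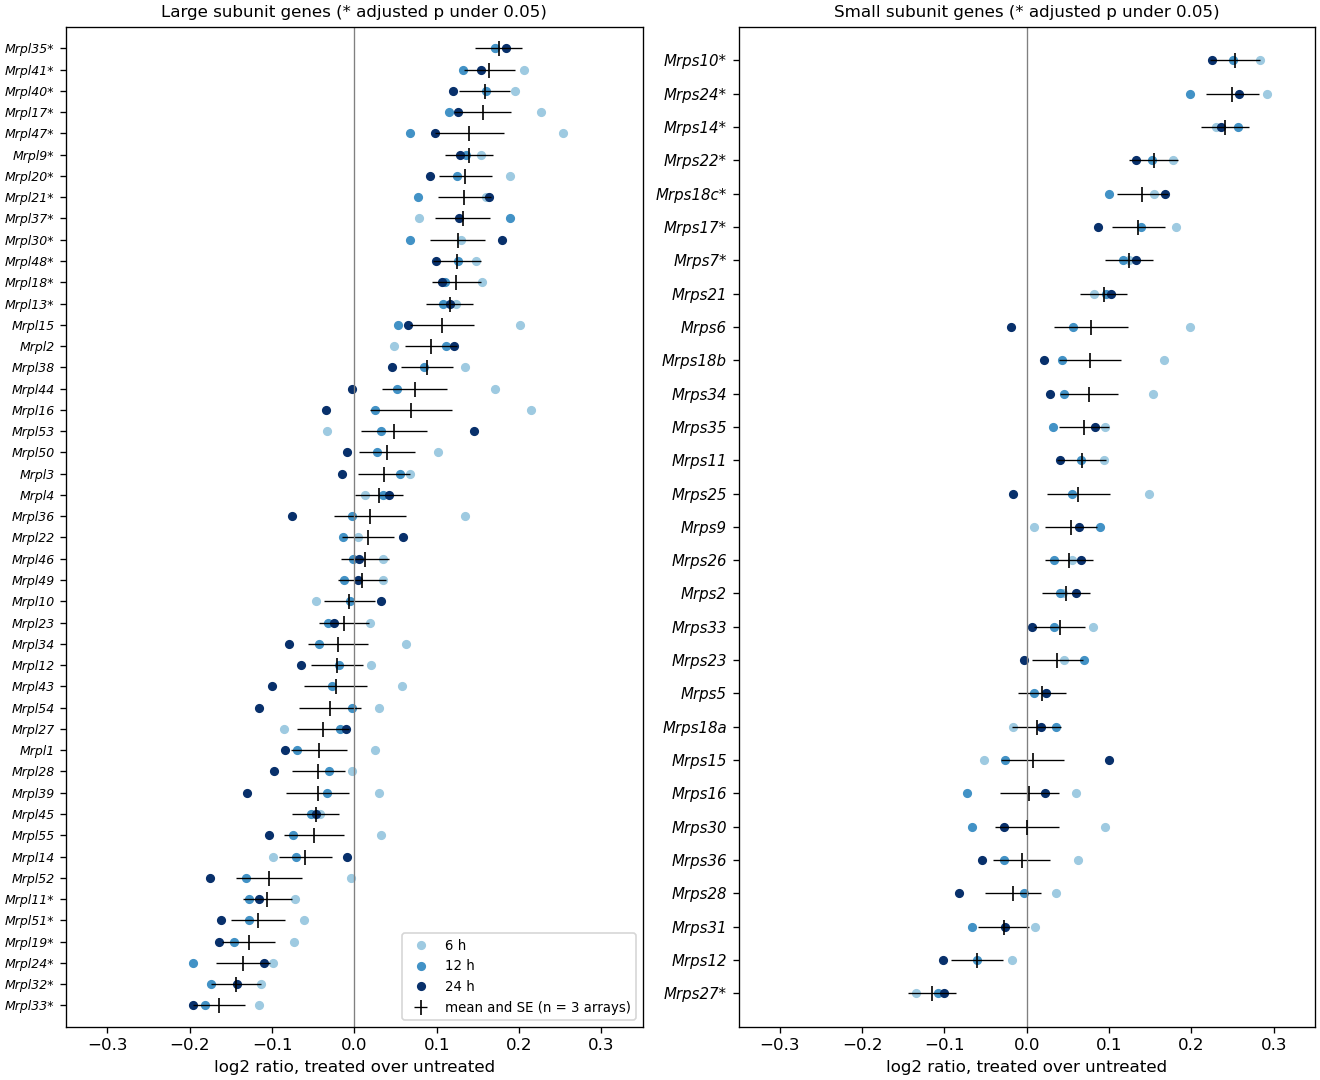
Log2 ratio of treated to untreated MigA9 cells for each gene of the large (left, 46 genes) and small (right, 29 genes) subunit at 6, 12 and 24 h (points), with the mean and its standard error (n = 3 arrays). Asterisks mark genes past an adjusted p of 0.05; Mrps10, Mrps24 and Mrps14 stand apart at the top of the right panel, between 0.20 and 0.29 at every time.

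Promoters of the 3 genes with the highest mean ratios and of the 2 large subunit genes with the lowest are shown here, so that the letters in front of the genes at either end can be set side by side. Promoter sequence came from RefSeq (GRCm38.p6), where 66 of the 75 genes were matched. The 120 bases before the annotated start are printed on the gene's strand, 5′ to 3′, with matches to the 4 motifs named further on in capitals.
Mrps10 (chr17:47369077-47369196, plus strand): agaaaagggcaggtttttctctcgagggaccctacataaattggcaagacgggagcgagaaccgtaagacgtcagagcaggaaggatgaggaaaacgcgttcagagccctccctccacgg
Mrps24 (chr11:5707702-5707821, minus strand): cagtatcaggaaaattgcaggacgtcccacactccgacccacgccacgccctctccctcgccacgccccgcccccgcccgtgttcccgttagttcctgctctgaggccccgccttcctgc
Mrps14 (chr1:160195095-160195214, plus strand): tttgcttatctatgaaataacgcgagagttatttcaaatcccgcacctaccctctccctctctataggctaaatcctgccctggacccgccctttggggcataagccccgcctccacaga
Mrpl33 (chr5:31613831-31613950, plus strand): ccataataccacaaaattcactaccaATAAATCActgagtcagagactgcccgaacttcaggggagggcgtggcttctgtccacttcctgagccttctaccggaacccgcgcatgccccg
Mrpl32 (chr13:14613038-14613157, minus strand): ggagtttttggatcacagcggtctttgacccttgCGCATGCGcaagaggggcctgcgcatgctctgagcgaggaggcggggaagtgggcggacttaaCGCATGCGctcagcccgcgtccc

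The small subunit held the 3 largest rises. Its genes had medians of 0.08, 0.04 and 0.03 at 6, 12 and 24 h, beside 0.03 at each time over all genes tested. Over the 3 times 7 of 29 genes rose, 1 fell and 21 did not pass, and the 27.6% that passed lay close to the background of 28.8%. At 6 h 25 of the 29 ratios were above 0, at 12 h 21 and at 24 h 20. The median of the mean ratio was 0.05 (0.03 over all genes), against 0.01 from Agilent's processed signals and 0.18 where each array was centred on its median without loess.

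Mrps10, Mrps24 and Mrps14 encode proteins of the head of the small subunit that have bacterial counterparts. The treated log2 signals of Mrps10 were 9.81, 9.80 and 9.62 at 6, 12 and 24 h, and the untreated signals on the same arrays were 9.53, 9.55 and 9.40. For Mrps24 they were 9.79, 9.83 and 9.77 in treated and 9.50, 9.63 and 9.51 in untreated cells, and for Mrps14 9.60, 9.65 and 9.57 against 9.37, 9.39 and 9.33. In each of the 3 genes the ratio was above 0 on each array. The mean ratios were 0.25 ± 0.03 for Mrps10 (SE, n = 3 arrays, limma adjusted p = 0.0045), 0.25 ± 0.03 for Mrps24 (adjusted p = 0.0049) and 0.24 ± 0.03 for Mrps14 (adjusted p = 0.0046). These were the 3 of the 27 genes that stayed past the threshold without the 12 h array, and they did so in each of the other 7 alternatives too. Each rests on 1 probe. Other proteins of the head did not move alike: Mrps7 rose (0.12 ± 0.03), while Mrps9 (0.05) and Dap3 (-0.08), a GTP-binding subunit that does not carry the family name, did not pass.

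The other small subunit genes that rose were Mrps22, Mrps18c and Mrps17. Mrps22, a subunit without a bacterial counterpart whose human gene is mutated in mitochondrial disease, had ratios of 0.18, 0.15 and 0.13, with a mean of 0.15 ± 0.03 (adjusted p = 0.012 in limma). Mrps18c is 1 of 3 mammalian relatives of a single bacterial protein. It had ratios of 0.15, 0.10 and 0.17 and a mean of 0.14 ± 0.03, from 2 probes. Its relatives Mrps18b (0.17, 0.04 and 0.02, mean 0.08, but -0.34 with median centring) and Mrps18a (mean 0.01) did not pass. Mrps17, which has a bacterial counterpart, stood at 0.18, 0.14 and 0.09. Mrps22, Mrps18c, Mrps17 and Mrps7 were no longer called when the 12 h array was left out, at means of 0.13 to 0.16, or with Agilent's processed log ratio, at means of 0.07 to 0.12.

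Mrps27, a pentatricopeptide repeat protein found in mitochondria alone, was the 1 small subunit gene that fell. Its treated log2 signals were 7.72, 7.81 and 7.59 and its untreated signals 7.86, 7.92 and 7.69 at 6, 12 and 24 h. The ratio was below 0 on each array, although the signal ranges overlapped between arrays. The mean ratio was -0.11 ± 0.03 (limma adjusted p = 0.029). Leaving out the 6, 12 or 24 h array ended this call, at means of -0.10, -0.12 and -0.12, and from Agilent's processed signals it held at -0.28.

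Among the small subunit genes that did not pass, Mrps12, the protein of the decoding centre, had ratios of -0.02, -0.06 and -0.10 (mean -0.06 ± 0.03). Mrps30 was at 0.09, -0.07 and -0.03; structures of the ribosome place it, like Mrps18a, in the large subunit in spite of its name. Mrps16 stood at 0.06, -0.07 and 0.02, Mrps28 had a mean of -0.02 and Mrps31 one of -0.03. Mrps36, since assigned to the oxoglutarate dehydrogenase complex, had a mean of -0.01. With median centring Mrps12 (0.25), Mrps28 (0.35), Mrps31 (0.10) and Mrps36 (0.13) turned positive.

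The large subunit was more evenly divided. Its medians were 0.04, 0.00 and -0.01 at 6, 12 and 24 h. Over the 3 times 13 of 46 genes rose, 6 fell and 27 did not pass, so that 41.3% passed, beside the background of 28.8%. The shares that rose and fell were 28.3% and 13.0%. The median of the mean ratio was 0.02, turned to -0.02 from Agilent's processed signals and was 0.24 with median centring. The numbers that rose and fell were 1 and 1 from Agilent's processed signals and 33 and 3 with median centring. Without the 12 h array limma called 0 and 0 (13 and 2 at an unadjusted p under 0.05, beside 2074 and 812 of all 10948 genes).

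**Figure D2:**
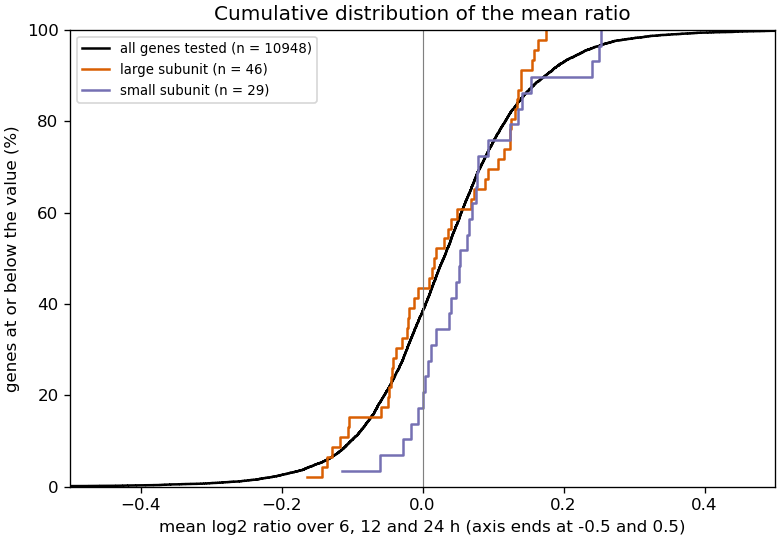
Share of genes (vertical axis, %) at or below each mean log2 ratio over 6, 12 and 24 h (horizontal axis) for all 10948 genes tested, the 46 large subunit genes and the 29 small subunit genes. The curves cross their middle at 0.03, 0.02 and 0.05, and neither subunit reaches the tails of all genes, which run from -0.79 to 1.09.

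Of the large subunit genes that rose, Mrpl35 had the highest mean, taken over 2 probes. Its dim probe stood at 0.20, 0.23 and 0.24 and its bright probe at 0.14, 0.11 and 0.13. On the brightest probe of each gene its mean was 0.13, below those of Mrpl40 (0.21), Mrpl41 (0.16) and Mrpl17 (0.16). The treated log2 signals of Mrpl35 were 8.63, 8.71 and 8.47 and its untreated signals 8.46, 8.54 and 8.28, and the ranges overlapped between arrays. The ratios were 0.17, 0.17 and 0.18, with a mean of 0.18 ± 0.03 (SE, n = 3 arrays, limma adjusted p = 0.0081). Mrpl35 encodes a protein with a bacterial counterpart, and it was the 1 large subunit gene that also rose from Agilent's processed signals (0.28). Mrpl41, a subunit found in mitochondria alone that has been studied for a part in cell death, had treated log2 signals of 11.16, 11.28 and 11.20 against 10.96, 11.14 and 11.05. Its ratio was above 0 on each array, and its mean was 0.16 ± 0.03 (limma adjusted p = 0.012).

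Mrpl40 (0.19, 0.16 and 0.12), another subunit specific to mitochondria, and Mrpl17 (0.23, 0.12 and 0.13), which has a bacterial counterpart, each had a mean of 0.16 ± 0.03. Mrpl47 was at 0.25 at 6 h, the highest large subunit ratio at any time, and at 0.07 and 0.10 later, and its mean of 0.14 ± 0.04 only just passed (adjusted p = 0.048 in limma). Its bright and its dim probe stood at 0.19 and 0.31 at 6 h, and on the bright probe alone it did not pass (0.10, limma adjusted p = 0.084). Mrpl9 stood at 0.15, 0.14 and 0.13. With median centring these last 2 genes turned to -0.05 and -0.20. Mrpl20, Mrpl21, Mrpl30, Mrpl18 and Mrpl13, with bacterial counterparts, and Mrpl37 and Mrpl48, which are specific to mitochondria, had means between 0.12 and 0.13. Mrpl37 was highest at 12 h (0.19) and Mrpl30 at 24 h (0.18).

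The large subunit genes that fell were Mrpl33, Mrpl32, Mrpl24, Mrpl19, Mrpl51 and Mrpl11. Mrpl33, with a bacterial counterpart, had treated log2 signals of 13.45, 13.66 and 13.61 and untreated signals of 13.57, 13.84 and 13.81 at 6, 12 and 24 h. The ranges overlapped between arrays. Before normalisation the measured signal of its probe was the higher in treated cells (18700 treated and 7270 untreated at 6 h). The ratios were -0.12, -0.18 and -0.20, with a mean of -0.16 ± 0.03 (limma adjusted p = 0.012). Without the filter on dim probes the mean turned to 0.06 (adjusted p = 0.63), since a second, dim probe stood at 0.80 at 24 h. Mrpl32, which is cut by the m-AAA protease after import before it joins the ribosome, had treated log2 signals of 9.02, 8.95 and 8.88 against 9.13, 9.12 and 9.02. Its ratios were -0.11, -0.17 and -0.14 (mean -0.14 ± 0.03, adjusted p = 0.016), and it was the 1 large subunit gene that also fell from Agilent's processed signals (-0.21).

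Mrpl24 stood at -0.10, -0.20 and -0.11 and Mrpl19 at -0.07, -0.15 and -0.16. Mrpl51, specific to mitochondria, had a mean of -0.12 ± 0.03, and Mrpl11, a protein of the base of the stalk where elongation factors bind, one of -0.11 ± 0.03. All 6 genes that fell had a positive or zero mean with median centring: Mrpl33 0.35, Mrpl51 0.31, Mrpl11 0.23, Mrpl24 0.09, Mrpl19 0.05 and Mrpl32 0.00. Mrpl12, the stalk protein that has also been reported to bind the mitochondrial RNA polymerase, did not pass (0.02, -0.02 and -0.06, mean -0.02 ± 0.03), nor did Mrpl52 (0.00, -0.13 and -0.17, mean -0.10). Mrpl52 did pass in limma on its brightest probe alone (-0.26, adjusted p = 0.0088) and without the 6 h array (-0.15, adjusted p = 0.018).

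The direction of many of these small ratios rested on the scaling, and brightness moved with it. With loess the dimmest and the brightest 10% of all genes had medians of 0.00 and -0.01, and after median centring they had -0.70 and 0.38. Of the 75 genes 68 were brighter than the median gene (7.93, mean log2 signal of both channels). With median centring 54 of the 75 rose and 7 fell, while 3975 of all genes rose and 4748 fell (2259 and 891 with loess, and 700 and 753 from Agilent's processed signals). The part of brightness in these counts beyond that was not tested.

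**Figure D3:**
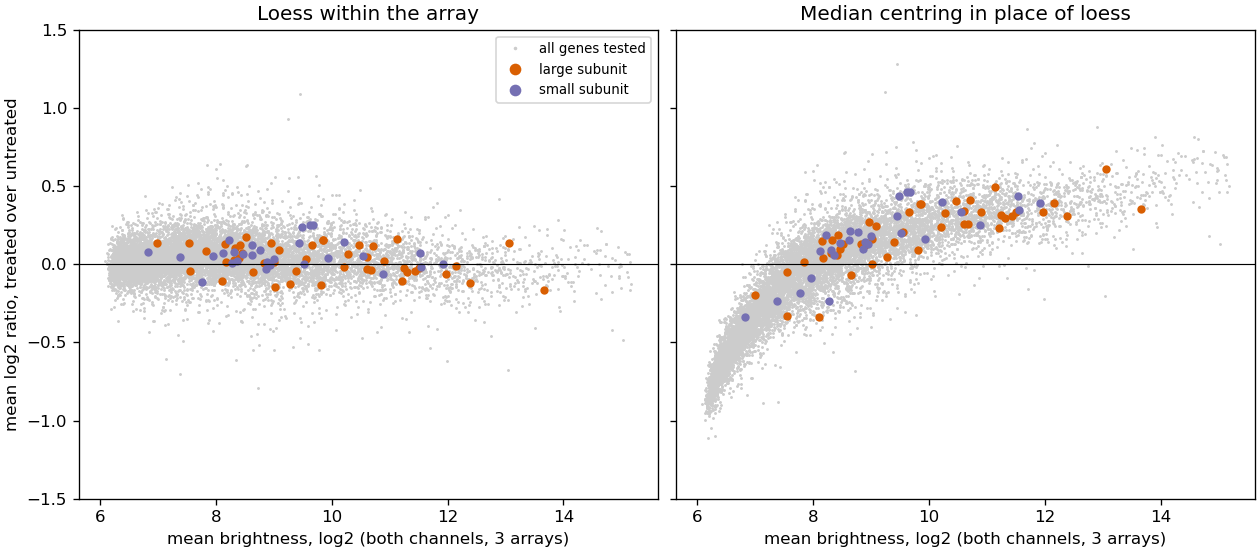
Mean log2 ratio over the 3 times (vertical axis) against mean brightness (horizontal axis, log2 signal of both channels over 3 arrays) with loess (left) and with median centring in its place (right), for all genes tested (grey) and both subunits (colour). With median centring the ratio climbs with brightness, and most of the subunit genes, which are bright, lie above 0.

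At 6 h more genes of both subunits were higher than later. At 6 h a ratio of 1.1-fold or more above 1 was seen in 13 large and 10 small subunit genes, and one of that size below it in 0 and 0, beside 17.9% of all genes higher and 7.32% lower. At 12 h the counts were 3 higher and 4 lower in the large subunit and 5 and 0 in the small (16.0% and 6.83% of all genes). At 24 h they were 5 and 5 in the large subunit and 4 and 0 in the small (19.9% and 9.14% of all genes). Over both subunits the median went from 0.06 at 6 h to 0.03 at 12 h and 0.02 at 24 h. These are descriptions of 1 array per time, and an array's own deviation is part of them.

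In the difference between 24 and 6 h a dye bias common to the arrays cancels. The ratio was lower at 24 h than at 6 h in 35 of 46 large subunit genes (76.1%) and 18 of 29 small subunit genes (62.1%), together 53 of 75 (70.7%), beside 50.1% of all genes. The median change was -0.06 in the large subunit, -0.04 in the small and 0.00 over all genes, sizes near the scatter of repeated spots. Related sets had shares on both sides of the background. The ratio was lower at 24 h in 8 of 9 nuclear regulators of mitochondrial genes (88.9%, median change -0.07), 4 of 6 ribosomal subunits under other names (66.7%, -0.11), 9 of 14 translation factors (64.3%, -0.06) and 9 of 14 genes of mitochondrial transcription (64.3%, -0.03). It was lower in 13 of 26 assembly factors and 14 of 31 tRNA enzymes. Among the genes of the cytosolic ribosome 8 of 64 were lower at 24 h than at 6 h (12.5%), with a median change of 0.07, and among nuclear-encoded subunits of oxidative phosphorylation 37 of 75 (49.3%). Over 5 other settings of background, scaling, filter and probe choice the share for both mitochondrial subunits together was 72.0 to 81.3%, and that for the cytosolic ribosome 12.5 to 17.2%. The difference reached 1.1-fold downward in 9 large and 3 small subunit genes (11.8% of all genes) and upward in 1 and 1 (12.4% of all genes). A single array per time allows no test of this change, so whether the sets differ beyond the error of the arrays was not tested.

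**Figure D4:**
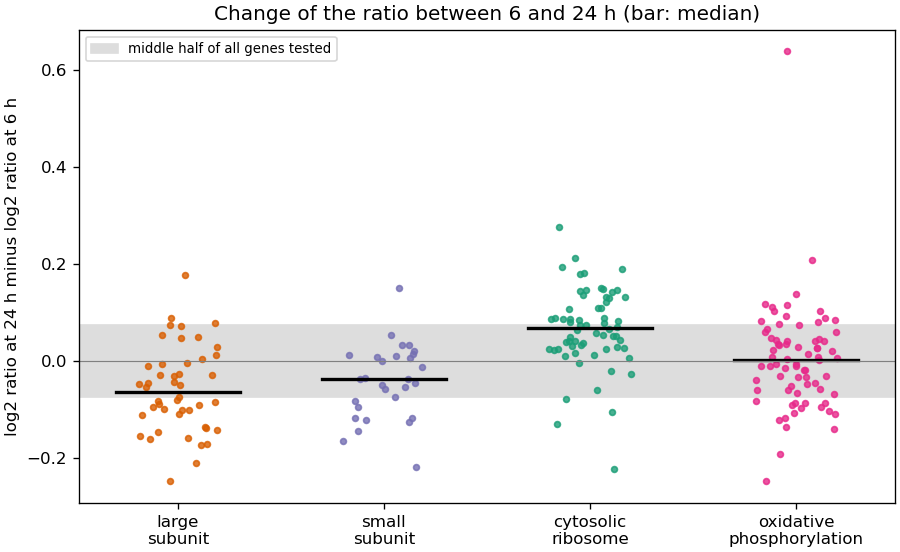
Log2 ratio at 24 h minus that at 6 h (vertical axis) for each gene of the large and small subunit of the mitochondrial ribosome, of the cytosolic ribosome and of oxidative phosphorylation (points, scattered sideways), with the median of each set as a bar and the middle 50% of all genes tested as a grey band. The medians lie at -0.06, -0.04, 0.07 and 0.00.

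The largest downward differences between 6 and 24 h were those of Mrpl16 and Mrpl36 in the large subunit and of Mrps6 and Mrps25 in the small. The ratio of Mrpl16 was 0.21 at 6 h, 0.03 at 12 h and -0.03 at 24 h. Its signal moved more than its ratio: the untreated log2 signals were 10.48, 10.65 and 9.61 and the treated ones 10.69, 10.68 and 9.58, so that both were lower on the 24 h array. Mrpl36 went from 0.13 to 0.00 and -0.08, Mrps6 from 0.20 to 0.06 and -0.02 and Mrps25 from 0.15 to 0.06 and -0.02. In the other direction Mrpl53 went from -0.03 to 0.15 and Mrps15 from -0.05 to 0.10, with smaller changes in Mrpl14 (-0.10 to -0.01) and Mrps9 (0.01 to 0.06). None of these 8 genes passed the test of the mean.

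Probes of 1 gene differed by amounts that are not small beside the ratios reported here. Of the 75 genes 48 had 1 measured probe and 27 had several, whose means lay a median of 0.06 apart. The signed mean ratio over both subunits had a median of 0.04 and quartiles of -0.02 and 0.12. In 11 genes the probes had means of opposite sign, namely Mrpl3, Mrpl43, Mrpl44, Mrpl45, Mrpl49, Mrpl52, Mrps5, Mrps15, Mrps23, Mrps33 and Mrps36. Of these 11, 0 passed as the mean of their probes, which their choice itself favours, since opposite signs average toward 0. Mrpl52 and Mrpl45 (-0.13) did pass on the brightest probe. The widest gap, 0.31, was that of Mrpl52, whose bright probe gave -0.13, -0.29 and -0.35 at 6, 12 and 24 h and whose dim probe gave 0.12, 0.03 and 0.00. The change of Mrps15 came from a dim probe (-0.13, -0.09 and 0.18), while its bright probe stood at 0.02, 0.04 and 0.02. A further 15 probes of the family were too dim on at least 1 array to be used, and 9 of them were so in either channel on every array.

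Genes of the ribosome that the name rule does not catch were few. Mrpl42, listed on the array under an older name, rose (0.24, 0.23 and 0.23, mean 0.23 ± 0.03, limma adjusted p = 0.0047) and stayed past the threshold in all 8 alternatives. Mrpl57 (-0.05) and Mrpl58 (-0.11), also under older names, did not pass. Of 6 subunits listed by other names, Mrpl58 again counted and the nearest to the threshold (adjusted p = 0.055), 0 passed in limma (0 higher and 1 lower at an unadjusted p under 0.05). Over all 10948 genes 3274 were higher and 1430 lower at that unadjusted p. The 6 subunits include Ptcd3 (0.06) and Aurkaip1 (0.00).

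The genes that serve the mitochondrial ribosome were counted for comparison, with the lists taken from general knowledge. Of 26 measured assembly factors 4 rose and 1 fell (19.2% passed, beside 28.8% of all genes). Mrm1, which methylates the large ribosomal RNA (0.19 ± 0.03, limma adjusted p = 0.0073), and Tfb1m, which methylates the small one (0.18 ± 0.03, adjusted p = 0.010), had the highest means, followed by Fastkd2, an RNA-binding factor of large subunit assembly (0.14). Gtpbp10, a GTPase of large subunit maturation, fell (-0.12 ± 0.03). Of 14 translation factors 0 passed in limma (4 higher and 0 lower at an unadjusted p under 0.05, beside 3274 and 1430 of all 10948 genes). Tufm, the mitochondrial elongation factor that delivers transfer RNA, stood at 0.08 ± 0.03 (limma adjusted p = 0.10).

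Of 31 mitochondrial aminoacyl-tRNA synthetases and tRNA enzymes 2 rose and 1 fell (9.68% passed, beside 28.8% of all genes). With median centring 8 were higher and 15 lower, beside 3975 and 4748 of all 10948 genes. Mtfmt, which formylates the initiator transfer RNA, was among those that rose (0.15 ± 0.03). Hsd17b10, a subunit of mitochondrial RNase P, fell (-0.21 ± 0.03, limma adjusted p = 0.0061), with 0.06 under median centring. Of 14 genes of mitochondrial transcription and genome maintenance 1 rose, the single-strand binding protein Ssbp1 (0.11 ± 0.03), and 2 fell, Polg2 (-0.17 ± 0.03) and Polg (-0.12 ± 0.04), both subunits of the mitochondrial DNA polymerase. Polrmt (0.06), the mitochondrial RNA polymerase, and Tfam (-0.03), which packs mitochondrial DNA, did not pass. The 3 of 14 that passed are 21.4%.

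Of 9 nuclear regulators reported for mitochondrial genes 1 passed (11.1%). Ppargc1b, a coactivator of mitochondrial gene expression, had ratios of 0.35, 0.24 and 0.07 and rose, with a mean of 0.22 ± 0.05 (limma adjusted p = 0.025). It did not pass with median centring (0.04, limma adjusted p = 0.51) or from Agilent's processed log ratio (0.27, limma adjusted p = 0.085). Ppargc1a, in the same list, had similar ratios (0.34, 0.23 and 0.00) and did not pass (mean 0.19, limma adjusted p = 0.061). Its mean was -0.27 with median centring. Neither Nrf1 (-0.01) nor Gabpa (0.09), which bind promoters of many nuclear genes for mitochondrial proteins, passed. In the cytosolic ribosome 11 of 64 genes rose and 5 fell (25.0% passed), and in oxidative phosphorylation 16 of 75 rose and 8 fell (32.0% passed), beside the background of 28.8%. These counts moved with the setting: 58 and 2 and 68 and 3 with median centring, 4 and 0 and 1 and 2 from Agilent's processed signals, and 1 and 0 in both sets without the 12 h array. Over all 10948 genes the counts in these settings were 3975 and 4748, 700 and 753, and 458 and 158, in the same order. The calls named here for assembly factors, tRNA enzymes, transcription genes and Ppargc1b were lost without the 12 h array.

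Promoters of the mitochondrial ribosome were searched on both strands over 250 bases before the start. The core of the NRF1 motif, CGCATGCG, was found in 7 of 66 genes (10.6%), beside 1.75% of 27025 genes in the table. The ETS core bound by GABP, CCGGAAG, was found in 17 (25.8% against 7.83%), and the YY1 core AANATGGC in 7 (10.6% against 4.49%). Part of the composite motif of HOXA9 with PBX, TGATTTAN, was found in 1 gene (1.52% against 3.07%), and a run of at least 6 A or T letters, the kind of stretch that minor groove ligands favour, in 38 (57.6% against 70.3%). The background here is every gene in the table, measured on the arrays or not, while the 66 were all measured. A share over the measured genes alone was not counted. The shares describe letters only, and no binding was measured here.

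By direction the counts were small. The ETS core was in 5 of 19 matched genes that rose and 2 of 6 that fell, the NRF1 core in 2 and 1, the YY1 core in 1 and 3, and the run of A or T letters in 11 and 5. Of the promoters printed above, those of the highest genes, Mrps10, Mrps24 and Mrps14, held no match to a capitalised motif in these 120 bases. Each of them did hold a run of A or T letters there, which is not capitalised. So did the printed stretch of Mrpl33, but not that of Mrpl32. Mrpl32, which fell, had NRF1 cores 86 and 23 bases before the start and a YY1 core at 242, upstream of the printed stretch, and Mrpl33, which also fell, held the 1 match to the HOXA9 and PBX letters, 94 bases before the start, as its reverse complement. Among the genes that rose, Mrpl17 held an NRF1 core 10 bases before the start and an ETS core at 237, and the stretch with the former is shown for comparison with Mrpl32.
Mrpl17 (chr7:105811088-105811207, minus strand): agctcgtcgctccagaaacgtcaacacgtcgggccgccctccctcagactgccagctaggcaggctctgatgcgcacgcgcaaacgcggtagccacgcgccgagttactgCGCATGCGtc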

How the data were processed

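Gene expression was measured on 3 two-colour arrays, 1 each at 6, 12 and 24 h. The authors extracted the signals with Agilent Feature Extraction 9.1.3.1, per the submitters' processing notes. Per the file headers, the deposited scanner output gives a foreground and a background intensity per spot in either channel, and a log10 ratio (treated, Cy5, over untreated, Cy3). The series' value matrix differs from that ratio by 0. The array files name no genome build.

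Here intensities were corrected with normexp (offset 50) and loess within each array (limma 3.58.1 in R 4.3.3, with version 1.17.8 of data.table), giving log2 ratios of the deposited intensity values, with no scaling between arrays. The offset draws ratios of dim genes toward 0. Control spots and outlier spots (37, 36 and 52) were left out. Probes were used where neither channel was dim or saturated on any of the 3 arrays, and averaged by gene. Of 41174 probes, 22864 were named by accession in RefSeq, 6732 by symbol and 3498 by synonym, and 8080 kept the file's name; the probes of the mitochondrial ribosome were named by accession (105) or symbol (21). Median signals over all probes were 78.2 to 79.3 in Cy3 (background 41 to 42) and 71.8 to 72.1 in Cy5 (background 54), and precision is limited by having 3 arrays.

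The mean over the times was tested with lmFit and eBayes (2 residual and 4.84 prior degrees of freedom). Nothing in the labels says whether the arrays came from separate cultures, so p-values measure the spread between these arrays. On simulated data for the 10948 genes, with noise drawn independently for each gene and no dye bias, the test recovered 67 of 67, 67 of 67 and 66 of 66 planted genes at 3 sizes, with 14 false calls; every planted size was above the changes seen in the mitochondrial ribosome, so recovery at those was not tested. A change between times counts as error. Alternatives were Agilent's log ratio, plain subtraction, median centring, no filter, the brightest probe and leaving out each array. The genes, lists and rules were chosen with earlier results of these data known. Named were, for each subunit, the 6 highest and 6 lowest means, the 2 highest and 2 lowest ratios at each time and changes from 6 to 24 h, members with probes of opposite sign, and genes fixed by role; all members past the threshold were added, and a few other members were named as relatives or structural neighbours after their values were seen. One tRNA enzyme gene that rose is not reported here. Summaries and figures used matplotlib 3.10.9, pandas 2.3.3 and numpy 2.4.6 in Python 3.11.15.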

Additional observations from a re-analysis of the deposited data

How the results depend on the processing

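Of the 27 genes of the mitochondrial ribosome past the threshold, 22 kept the call and direction with plain background subtraction, 23 without the filter on dim probes, 25 with the brightest probe of each gene, 19 after median centring without loess and 6 from Agilent's processed log ratio. Without the 6, 12 or 24 h array 22, 3 and 15 kept it, which leaves 1 residual degree of freedom fewer. From Agilent's log ratio 1 large subunit gene was higher and 1 lower, 3 small subunit genes were higher and 2 lower, and 700 of all genes were higher; the median of the mean was -0.02 in the large and 0.01 in the small subunit, and the small subunit median at 12 h was 0.01. With median centring 33 large subunit genes were higher and 3 lower, 21 small subunit genes were higher and 4 lower, and 3975 and 4748 of all genes; the large subunit median was 0.24 over the times and 0.25, 0.21 and 0.18 at 6, 12 and 24 h, and the small subunit median 0.18 and 0.22, 0.16 and 0.15. Leaving out 1 array gave 458 to 2297 genes higher and 158 to 952 lower over all genes. It gave 0 to 11 and 0 to 7 in the large subunit, and 3 to 6 and 0 in the small, with medians of 0.01 to 0.03 and 0.04 to 0.06. Every lowest count was without the 12 h array. The small subunit count of lower genes was 0 whichever array was left out (1 at an unadjusted p under 0.05 in limma, beside 812 to 1498 of all genes).

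Over all 75 genes the sign of the mean turned in 27 with median centring, 13 from Agilent's log ratio, 4 with plain subtraction, 3 without the filter, 4 with the brightest probe, and 6, 1 and 10 without the 6, 12 or 24 h array. Among the genes named by rule and past the threshold in at least 1 of the settings compared, it turned with median centring in Mrpl11 (0.23), Mrpl12 (0.32), Mrpl14 (0.33), Mrpl19 (0.05), Mrpl24 (0.09), Mrpl32 (0.00), Mrpl33 (0.35), Mrpl43 (0.34), Mrpl47 (-0.05), Mrpl51 (0.31), Mrpl9 (-0.20), Mrps12 (0.25), Mrps15 (-0.23), Mrps28 (0.35), Mrps31 (0.10) and Mrps36 (0.13), from Agilent's log ratio in Mrps15 (-0.25) and without the filter on dim probes in Mrpl33 (0.06, a mean that then includes its dim probe). Beyond the trend of ratio with brightness under median centring, the cause was not tested. No paired analysis was possible because each time had 1 array, on which the untreated sample is already paired with the treated one. Dim probes limit what can be seen: a ratio near background is drawn toward 0.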

Other observations

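Probes well above background in 1 channel alone give a bound in place of a ratio. A second, dim probe of Mrpl33 was well above background in treated cells at 24 h only (signals of 136 treated and 72.3 untreated), where it was at least 1.74-fold higher by normalised signals, while the bright probe of the gene was lower on the same array (-0.20). The other probes of this kind, for Mrpl35, Mrps18b, Mrps25, Mrps5 and Mrps9, had treated signals of 78.7 to 88.4 and untreated signals of 75.2 to 82.8, and no fold is given for them. The bound sets the normalised signal of the bright channel against the higher of the dim one and the lowest signal well above background. Here the dim signal was the higher, so that the bound equals the normalised ratio (0.80), and it is open to dye bias.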
